A study of Mus musculus with 59 samples.

Results

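The mRNA of 9 genes that build and relay the signals of the precursor B-cell receptor (pre-BCR) and the B-cell receptor (BCR) was examined in immature B cells of the bone marrow. The genes were taken by name: Cd79a and Cd79b, Vpreb1, Igll1 and Vpreb3, and Lyn, Syk, Btk and Blnk. They are 9 of the 24732 genes listed, and all 9 had a value in every library. Messenger RNA was sequenced in 5 of the 59 libraries of the study, which asks how regulatory elements of the immunoglobulin heavy-chain (Igh) locus of the mouse promote recombination of distal VH genes.

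In both groups, the C57BL/6 Igh allele carried the Δ890 deletion, which removes 890 kb of the distal VH gene cluster, and the second Igh allele was described as a wild-type 129/Sv allele. Cells with IgMb on their surface, which use the C57BL/6 allele, were sorted ex vivo as B220+IgM+IgD- immature B cells. The control group held 2 Δ890 libraries (Igh Δ890/+). The other group held 3 P4V libraries, in which the PAIR4 element and the V8.7E element had been inserted at the deletion point. The labels name the P4V genotype as homozygous, whereas the study describes the crossed mice as heterozygous and in places writes the homozygous form too, and which of these holds was not tested. No age was given for these mice. The insertion also brings back the VH8-7 gene of the deleted region, whose mRNA was not analysed here, and the other deleted VH genes are absent from the sorted allele in both groups, so that the labels were not checked by these genes. Replicate numbers follow the order of listing and pair no libraries, and the study describes the libraries as independent experiments.

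As background, a pro-B cell that has assembled a heavy chain pairs it with a surrogate light chain made of VpreB (Vpreb1 or Vpreb2) and λ5 (Igll1). This pre-BCR, joined to the signalling chains Igα (Cd79a) and Igβ (Cd79b), drives a few cell divisions, after which the surrogate light chain genes are silenced and a κ or λ light chain replaces it to form the BCR. Both receptors signal by the same route: the Src-family kinase Lyn phosphorylates the tails of Igα and Igβ, Syk binds there and is activated, and Syk phosphorylates the adaptor Blnk, which brings Btk to phospholipase Cγ. Vpreb3 encodes a VpreB-like protein that stays inside the cell and associates with immunoglobulin chains.

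The surrogate light chain genes were the members whose levels varied most, so the sequences upstream of their start sites are shown (RefSeq, GRCm38.p6, each 5′ to 3′ on the strand of its gene). Vpreb1 and Igll1 lie on the minus strand of chromosome 16 with start sites 5270 bases apart. The first 2 lines give the 250 bases before each start, at chr16:16869256-16869505 for Vpreb1 and chr16:16863986-16864235 for Igll1. The third gives the 106 bases of the Vpreb2 window, at chr16:17980315-17980420 on the plus strand, that align with the 106 bases next to the Vpreb1 start. Capitals mark the E-box CAGGTG or its reverse complement CACCTG, the letters bound by E proteins such as E2A, which are known regulators of these genes.
Vpreb1: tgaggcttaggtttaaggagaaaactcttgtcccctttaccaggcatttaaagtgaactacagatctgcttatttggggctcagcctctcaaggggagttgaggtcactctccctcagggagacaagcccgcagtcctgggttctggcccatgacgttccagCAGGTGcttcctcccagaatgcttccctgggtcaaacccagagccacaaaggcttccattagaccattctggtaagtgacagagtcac
Igll1: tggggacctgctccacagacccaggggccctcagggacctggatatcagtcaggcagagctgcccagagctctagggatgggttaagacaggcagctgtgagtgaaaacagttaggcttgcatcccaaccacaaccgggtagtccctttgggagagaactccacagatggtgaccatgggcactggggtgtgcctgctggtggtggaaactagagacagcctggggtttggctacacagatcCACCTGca
Vpreb2: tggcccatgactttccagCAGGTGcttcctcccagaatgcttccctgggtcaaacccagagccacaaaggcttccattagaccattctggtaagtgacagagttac

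Each of these stretches held 1 match to CAGGTG or CACCTG, which began 88 bases before the start in Vpreb1 and 8 bases before it in Igll1. Other forms of the E-box were not searched. The Vpreb1 and Vpreb2 stretches were identical at 98.1% of the 106 aligned bases and differed by G12T and C104T, where positions count from 1 at the 5′ end of the stretch and the Vpreb1 base comes first. The E-box form CAGGTG was found on either strand in the 250-base windows of 5 of the 7 members with an entry (Cd79a, Blnk, Syk, Igll1 and Vpreb1), against 17.2% of all 32851 windows. The palindrome of EBF1, a further regulator of B-cell genes, was found (on either strand) in the window of no member and in 0.779% of all windows. These matches describe letters only. The likeness of both VpreB genes extended into their transcripts, as 32.5% of the 50-base windows of the Vpreb1 transcript, the length of a read, occurred in the Vpreb2 transcript too. Only uniquely mapped reads were counted, and the level of both genes is therefore uncertain.

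Levels are given in TPM, a unit scaled for gene length and to a fixed total per library, which can be compared between genes but keeps no read depth. The 10 highest genes took 9.74% to 10.7% of all TPM of a library, and each P4V library stood apart in a few genes. P4V replicate 2 held 10 genes at 10 TPM or more that were at least 2-fold above every other library, of which 7 were immunoglobulin genes (among them the switched constant regions IGHG2a, IGHG2b, IGHG3 and IGHA) and the other 3 were Igll1, Vpreb1 and Dntt. P4V replicate 1 held 3 such genes, all immunoglobulin V genes (Igkv1-99, Igkv2-109 and Ighv1-12), and the Δ890 libraries held 0. By the mirrored rule, 8 genes were at least 2-fold below every other library in P4V replicate 3, 0 in P4V replicate 2 and 1 in each of the other 3 libraries. P4V replicate 3 held 2 genes above all others, S100a9 and Fcnb, both known from neutrophils, and all 8 markers of myeloid cells were highest in it, with a summed level of 8259 TPM against 2951 to 4253 TPM in the other 4 libraries. Of the 5 markers of immature B cells, 4 were abundant in all 5 libraries, with Ighm at 15339 to 19530 TPM, Igkc at 18716 to 22370 TPM, Cd24a at 2393 to 2591 TPM and Cd93 at 87.6 to 116 TPM, and the fifth, Ms4a4c, was at 6.43 to 10.3 TPM. Ighd mRNA was also present, at 216 to 381 TPM.

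The members fell into 3 tiers. Cd79a, Cd79b and Vpreb3 lay between 4064 and 10845 TPM, the kinases and the adaptor lay between 86.6 and 1079 TPM, and Igll1 and Vpreb1 lay between 10.4 and 19.8 TPM outside P4V replicate 2. By mean level, the order was Cd79a, Cd79b, Vpreb3, Syk, Lyn, Blnk, Btk, Igll1 and Vpreb1. The ranges of neighbours overlapped only for Lyn and Blnk, which kept this order in 4 of 5 libraries, and for Igll1 and Vpreb1, which kept it in 5 of 5. Together, the 9 genes made up 2.15% to 2.30% of all TPM of a library.

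**Figure D1:**
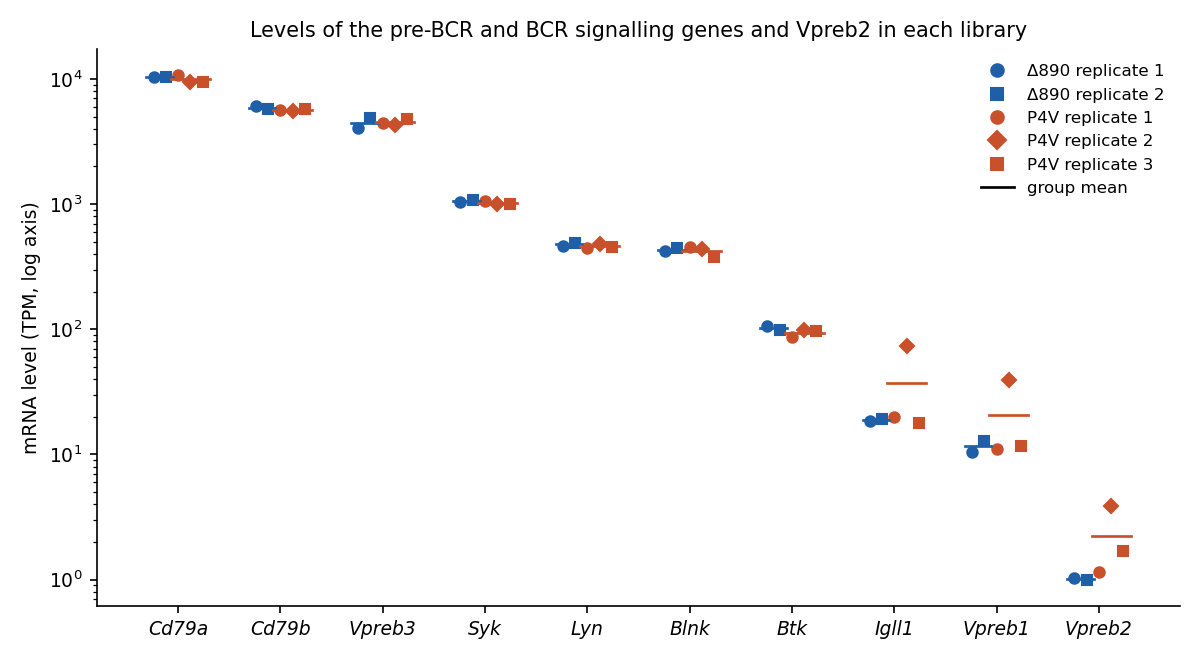
Levels of the 9 genes and of Vpreb2 in each library, in TPM on a log axis, with symbols for the libraries (blue, Δ890, 2 libraries; orange, P4V, 3 libraries) and horizontal lines for the group means. The points of most genes nearly coincide, while P4V replicate 2 lies above all other libraries for Igll1 (73.8 TPM), Vpreb1 (39.1 TPM) and Vpreb2 (3.90 TPM).

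Whether immature B cells whose heavy chain came from the P4V allele differed from those of the Δ890 allele was tested by limma on log2(TPM + 1). The fit covered 11681 genes whose mean reached 1 TPM, and all 9 members were among them. None of the 9 genes passed an adjusted p of 0.05 in either direction, beside 0.00856% of all genes tested that did so with higher levels in P4V (1 gene, Ighv1-82) and 0.00% with lower levels. None reached an unadjusted p of 0.05 either, which 4.47% of all genes tested did. The groups overlapped for all 9 genes, whereas 23.2% of all genes had groups without overlap. The median difference, P4V minus Δ890, was -0.04 on the log2 scale for the 9 genes and -0.03 for all genes tested. With 2 and 3 libraries, the intervals below say which differences could have been missed.

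Cd79a and Cd79b, the signalling chains shared by both receptors, were among the most abundant mRNAs, ranking 4 and 10 of all genes tested by mean level. Cd79a stood at 10436 and 10288 TPM in the Δ890 libraries and at 10845, 9500 and 9495 TPM in the P4V libraries. The highest and the lowest value were both P4V. Its log2 difference was -0.06 (SE 0.10, 95% interval -0.31 to 0.19, limma adjusted p = 0.942). Cd79b stood at 6035 and 5706 TPM in Δ890 and at 5599, 5575 and 5795 TPM in P4V. Its highest library was Δ890 and its other 4 lay close together, with a log2 difference of -0.05 (SE 0.08, interval -0.25 to 0.15, limma adjusted p = 0.936). Per library, Cd79a was 1.64 to 1.94 times as abundant as Cd79b.

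The surrogate light chain genes were low, but 1 library departed from the others. Igll1 stood at 18.3 and 19.3 TPM in Δ890 and at 19.8, 73.8 and 17.97 TPM in P4V. Vpreb1 stood at 10.4 and 12.9 TPM in Δ890 and at 11.1, 39.1 and 11.6 TPM in P4V. In both, P4V replicate 2 was high and the other P4V libraries lay within or next to the Δ890 values. The level in P4V replicate 2 was 3.91 times the mean of the other 4 libraries for Igll1 and 3.39 times for Vpreb1. From the lowest to the highest library, Igll1 spanned 1.98 and Vpreb1 1.81 on the log2 scale of TPM + 1. The median span was 0.24 over the 8101 genes that averaged 10 TPM or more, and 21 of these genes spanned more than Igll1 and 27 more than Vpreb1.

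That library also set the group comparison of both genes. The log2 difference of Igll1 was 0.64 (SE 0.56, interval -0.69 to 1.97, limma adjusted p = 0.893), and it was 0.0029 without P4V replicate 2 (interval -0.23 to 0.23, limma adjusted p = 0.999). For Vpreb1, the log2 difference of 0.54 (SE 0.50, interval -0.66 to 1.73, limma adjusted p = 0.904) became -0.03 (interval -0.34 to 0.28, limma adjusted p = 0.969). With all libraries, the interval of Igll1 covered folds of P4V over Δ890 from 0.621 to 3.91 and that of Vpreb1 from 0.634 to 3.32.

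Vpreb2, which encodes the second VpreB protein and is not among the 9 genes, followed the same libraries at a lower level. It stood at 1.03 and 0.986 TPM in Δ890 and at 1.16, 3.90 and 1.68 TPM in P4V. Each P4V library lay above both Δ890 libraries, as it did for 6.94% of all genes, with a log2 difference of 0.60 (SE 0.33, interval -0.19 to 1.396, limma adjusted p = 0.893) and of 0.26 without P4V replicate 2 (limma adjusted p = 0.827). These levels are near the minimum of 1 TPM, and reads from sequence that Vpreb1 and Vpreb2 share count for neither gene when only unique reads are kept. Igll1 exceeded Vpreb1 in every library by a factor of 1.501 to 1.89, and this ratio in P4V replicate 2 (1.89) was the highest but close to that of P4V replicate 1 (1.78). Hence the measured mRNAs for both chains of the surrogate light chain were high together in that library.

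**Figure D2:**
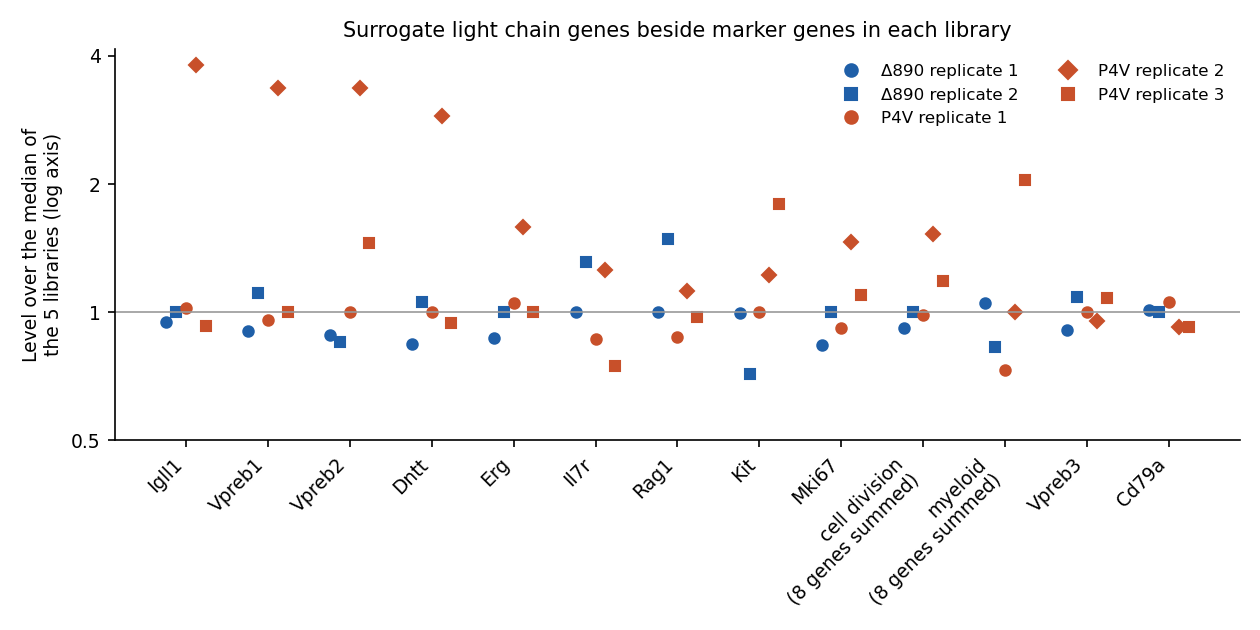
Level of surrogate light chain genes, of markers of pro-B and pre-B cells (Dntt to Kit), of cell division and of myeloid cells, and of Vpreb3 and Cd79a, each divided by its median over the 5 libraries (log axis; symbols as for the levels above, 1 point per library). P4V replicate 2 stands apart for Igll1, Vpreb1, Vpreb2 and Dntt and less for Erg and the division markers, and P4V replicate 3 is highest for the myeloid markers and Kit.

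The genes whose centred log2 levels lay closest to those of Igll1 over the 5 libraries, among all genes tested, were Vpreb1 (root mean square difference 0.13), Dntt (0.19) and Ighv1-4 (0.32). Dntt encodes terminal deoxynucleotidyl transferase, which adds N nucleotides to heavy-chain joints in pro-B cells, and stood at 7.20 and 9.06 TPM in Δ890 and at 8.57, 24.8 and 8.09 TPM in P4V. The VH gene Ighv1-4 stood at 75.4 and 50.6 TPM in Δ890 and at 41.4, 186 and 43.9 TPM in P4V. With 5 libraries, of which 1 carries the pattern, this likeness says no more than that these genes were high in the same library.

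Markers of earlier stages and of division were read beside the surrogate light chain. Of 8 markers of pro-B and pre-B cells, 2 (Dntt and Erg) were highest in P4V replicate 2, at 24.8 and 6.65 TPM. The summed level of the 8 markers in this library, 256 TPM, lay within the 214 to 267 TPM of the other libraries. Sox4 alone made up 153 to 189 TPM of the sum in each library. Without Sox4, a choice made after the values were seen, the sum was 94.1 TPM in P4V replicate 2 against 60.5 to 85.5 TPM in the others. Dntt, already known to be high in this library, made up 24.8 TPM of that sum against 7.20 to 9.06 TPM in the others. The sum therefore shows no rise of these markers in general, and Il2ra and Rag2 were highest in Δ890 replicate 2. Rag1, which encodes a subunit of the recombinase, ranged from 9.99 to 16.98 TPM and Il7r, the receptor of the pro-B cell cytokine IL-7, from 13.1 to 23.0 TPM, and both were highest in Δ890 replicate 2. Kit, a receptor of early progenitors, ranged from 1.04 to 2.62 TPM and was highest in P4V replicate 3. All 8 markers of cell division were highest in P4V replicate 2, where they summed to 345 TPM against 207 to 268 TPM elsewhere, with Mki67 at 58.8 TPM against 33.6 to 44.0 TPM. Of 5 plasma cell markers, Igj, the joining chain of secreted antibody, was high in P4V replicates 1 and 2, at 185 and 181 TPM against 32.6 to 65.6 TPM in the other 3 libraries, and Prdm1 ranged from 1.14 to 2.11 TPM in P4V against 0.994 and 1.00 TPM in Δ890. The sum of these markers was 509 and 518 TPM in P4V replicates 1 and 2 and 324 to 353 TPM in the others. In bulk RNA, a few cells with much of an mRNA and a small amount in many cells cannot be told apart, and the part of these markers in the levels of Igll1 and Vpreb1 was not tested.

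Vpreb3 did not follow this pattern. It stood at 4064 and 4857 TPM in Δ890 and at 4476, 4265 and 4826 TPM in P4V. Both extremes were Δ890 libraries, and P4V replicate 2 lay between them. The log2 difference was 0.02 (SE 0.11, interval -0.24 to 0.28, limma adjusted p = 0.983). Vpreb3 mRNA was 377 to 416 times as abundant as Vpreb1 in 4 libraries and 109 times in P4V replicate 2.

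Among the kinases, Lyn, the Src-family kinase at the receptor, stood at 465 and 491 TPM in Δ890 and at 445, 478 and 456 TPM in P4V. Its log2 difference was -0.06 (SE 0.07, interval -0.21 to 0.10, limma adjusted p = 0.922). Syk, which binds the phosphorylated tails of Igα and Igβ, stood at 1030 and 1079 TPM in Δ890 and at 1060, 1003 and 1010 TPM in P4V. Only 1 P4V library fell between both Δ890 libraries and the other 2 lay just below, with a log2 difference of -0.04 (SE 0.07, interval -0.20 to 0.12, limma adjusted p = 0.936). Its span over the 5 libraries, 0.11 on the log2 scale, was the smallest of the 9 genes.

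Btk, the Tec-family kinase whose loss arrests human B-cell development, was the lowest of the kinases, at 106 and 98.3 TPM in Δ890 and 86.6, 99.6 and 96.5 TPM in P4V. A single P4V library exceeded the lower Δ890 library. The log2 difference of -0.12 (SE 0.08, interval -0.31 to 0.08, limma adjusted p = 0.893) was the most negative of the 9 genes, but it moved with the libraries used, to -0.059 without P4V replicate 1, -0.063 without Δ890 replicate 1 and -0.16 without P4V replicate 2. Per library, Syk was 9.71 to 12.2 times as abundant as Btk. The adaptor Blnk stood at 425 and 443 TPM in Δ890 and at 451, 440 and 378 TPM in P4V, with P4V replicate 3 lowest. Its log2 difference was -0.04 (SE 0.09, interval -0.25 to 0.18, limma adjusted p = 0.957).

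For the 7 genes other than Igll1 and Vpreb1, the intervals covered folds of P4V over Δ890 from 0.805 at the lowest (Btk) to 1.22 at the highest (Vpreb3). Larger changes of these 7 mRNAs lay outside these intervals, which hold for the fit with all 5 libraries. Without P4V replicate 2, the log2 intervals were wider for both genes, at -0.38 to 0.07 for Btk and -0.26 to 0.38 for Vpreb3.

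**Figure D3:**
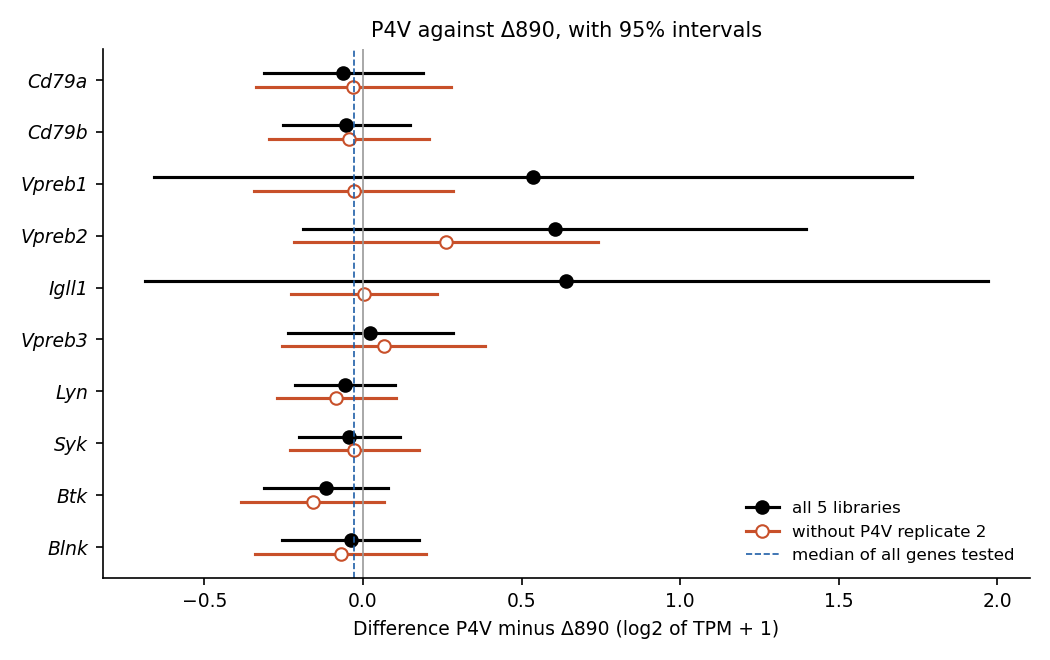
Difference P4V minus Δ890 on the scale of log2(TPM + 1) with its 95% interval for the 9 genes and Vpreb2, from all 5 libraries (black) and without P4V replicate 2 (orange), beside the median of all genes tested (dashed). Every interval includes 0, and those of Igll1 (-0.69 to 1.97) and Vpreb1 (-0.66 to 1.73) are the widest and shrink around 0 without that library.

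The wider pathway was read from 5 lists of genes, in which no gene of the 124 tested passed an adjusted p of 0.05 in limma. An unadjusted p under 0.05 was reached by 7 (3 downstream signalling genes and 4 response genes), which is 5.65% of the 124 beside 4.47% of all genes tested. The 4 response genes include Ccl3, which had a Δ890 mean of 0.593 TPM and met the minimum of 1 TPM only through P4V. Receptor chains and the coreceptor (12 of 12 tested) had a median log2 difference of -0.13 (-0.06 without P4V replicate 3 and -0.18 without P4V replicate 2). Each P4V library was below both Δ890 libraries for 4 of them (Iglc1, Iglc2, Iglc3 and Ptprc), beside 16.2% of all genes, and above for 1 (Vpreb2), beside 6.94%. Igkc, the κ constant region and the highest of this list, stood at 19662 and 18716 TPM in Δ890 and at 19474, 22370 and 18764 TPM in P4V. The μ constant region Ighm stood at 16910 and 15955 TPM in Δ890 and at 19530, 17759 and 15339 TPM in P4V. The groups of both overlapped. Iglc2, a λ constant region, stood at 2507 and 2131 TPM in Δ890 and at 2051, 2074 and 1666 TPM in P4V, with a log2 difference of -0.27 (SE 0.13, limma adjusted p = 0.893), and Ighd differed by -0.29 (SE 0.21, limma adjusted p = 0.893) with 381 TPM in Δ890 replicate 1 and 216 to 273 TPM elsewhere. Both moved with single libraries. Iglc2 was at -0.15 without Δ890 replicate 1 and -0.16 without P4V replicate 3, and Ighd at 0.073 without Δ890 replicate 1.

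The other kinases and adaptors (27 of 28 tested) had a median log2 difference of -0.05, with 8 genes lower than both Δ890 libraries in every P4V library, beside 16.2% of all genes, and 1 higher, beside 6.94%. Pik3ap1, an adaptor of phosphoinositide 3-kinase and among the most abundant of the list, ranged from 641 to 710 TPM. The most negative differences were those of Pik3ca (-0.21, SE 0.10), the catalytic subunit of phosphoinositide 3-kinase, and Nck2 (-0.19, SE 0.08), and the most positive were those of Lck (0.10, SE 0.07) and Vav3 (0.06, SE 0.11). Without P4V replicate 3, Pik3ca was at -0.14. The row of Lck is marked by the authors as overlapping another gene.

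Downstream signalling (40 of 40 tested) had a median of -0.06, with 12 genes lower than both Δ890 libraries in every P4V library, beside 16.2% of all genes, and 1 (Nfkb1) higher, beside 6.94%. The GTPases Rac2 and Rhoa were the highest, at 1437 to 1598 TPM and 397 to 441 TPM. Chuk, which encodes the kinase IKKα, stood at 24.3 and 23.9 TPM in Δ890 and at 19.4, 22.1 and 18.8 TPM in P4V (log2 difference -0.26, SE 0.09, limma adjusted p = 0.893), and Malt1, a paracaspase that links the receptor to NF-κB, differed by -0.20 (SE 0.08, limma adjusted p = 0.893). Orai1, the calcium channel, and Mapk3, the kinase ERK1, had the most positive differences, at 0.05 (SE 0.09) and 0.04 (SE 0.07).

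Inhibitory receptors and phosphatases (23 of 24 tested) had a median of -0.07 (-0.018 without P4V replicate 3 and -0.07 without P4V replicate 2). In every P4V library, 5 genes were lower (among them Fcgr2b, Cbl, Cblb and Sla2) and 0 higher than in both Δ890 libraries, beside 16.2% and 6.94% of all genes. Ptpn6, the phosphatase SHP-1, ranged from 2067 to 2309 TPM and Csk, which restrains Src-family kinases, from 1481 to 1642 TPM. Ubash3a (log2 difference 0.56, SE 0.28) and Ubash3b (0.20, SE 0.22) had the most positive and Sla2 (-0.50, SE 0.27) and Spry1 (-0.30, SE 0.17) the most negative values, and the row of Sla2 is marked as overlapping another gene. Without P4V replicate 3, Sla2 was at -0.23, without Δ890 replicate 2, Spry1 was at -0.14, and without P4V replicate 2, Ubash3a was at 0.33. Of these, Ubash3a was highest in P4V replicate 2, at 7.25 TPM against 2.75 to 5.32 TPM, and Ubash3b in P4V replicate 3, at 51.0 TPM against 29.6 to 33.3 TPM.

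The list of genes that receptor signalling can induce within minutes to hours leaned the other way, without passing the test. What set the levels of these genes in the sorted cells was not tested. Of the 27 genes of this list, 22 were tested, and their median log2 difference was 0.22. Of the 22, 19 (86.4%) had a positive value, against 39.3% of all genes tested. The negative values were those of Dusp2 (-0.07), Gadd45b (-0.02) and Dusp5 (-0.19). In the other pathway lists, the positive share lay below that of all genes, from 17.5% (downstream signalling) to 25.9% (other kinases and adaptors). The lists were chosen with earlier results of these data known, and no list was tested as a whole. Each P4V library lay above both Δ890 libraries for 6 of the 22 response genes (Fos, Fosb, Jun, Junb, Jund and Ccl3), beside 6.94% of all genes. Each lay below both for 1 (Dusp5), beside 16.2%. Ccl3 had a Δ890 mean of 0.593 TPM and met the minimum of 1 TPM only through P4V. Its place in this count and among the positive values is therefore no support for the lean. Fos, which encodes an AP-1 subunit, stood at 78.5 and 65.4 TPM in Δ890 and at 110, 148 and 126 TPM in P4V (log2 difference 0.82, SE 0.14, interval 0.49 to 1.14, limma unadjusted p = 0.000641, adjusted p = 0.832). Fosb, a second AP-1 subunit, stood at 7.89 and 6.99 TPM in Δ890 and at 14.5, 21.9 and 28.7 TPM in P4V (log2 difference 1.38, SE 0.25, interval 0.78 to 1.98, limma unadjusted p = 0.00109, adjusted p = 0.893). In both genes the groups were apart, but neither gene passed the test after adjustment over all genes.

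Among response genes outside AP-1, Ccl3, a chemokine, had the largest value (log2 difference 0.66, SE 0.24, limma adjusted p = 0.893). It stood at 0.223 and 0.964 TPM in Δ890 and at 1.78, 1.11 and 1.52 TPM in P4V. Its Δ890 mean of 0.593 TPM was under the minimum of 1 TPM, which Ccl3 met only through P4V, the group where it was high. Its difference was therefore partly set by the filter. Egr1, an immediate early gene that the same signals induce, stood at 190 and 158 TPM in Δ890 and at 175, 180 and 296 TPM in P4V, so that only P4V replicate 3 exceeded both Δ890 libraries (log2 difference 0.28, SE 0.23, limma adjusted p = 0.893). Nr4a1, used as a reporter of receptor signalling in B cells, stood at 25.8 and 20.8 TPM in Δ890 and at 23.2, 25.7 and 26.8 TPM in P4V (log2 difference 0.12, SE 0.11, limma adjusted p = 0.906). Jund and Dusp2 were the most abundant of the list, at 994 to 1039 TPM and 815 to 930 TPM, with differences of 0.04 (SE 0.06) and -0.07 (SE 0.08). That of Dusp2 was -0.032 without P4V replicate 2 and -0.13 without P4V replicate 3. Ccl3, Egr1 and Nr4a1 were picked from the list after their values were seen. The myeloid markers, highest in P4V replicate 3, and the division markers, highest in P4V replicate 2, moved with part of these values. The median of the list was 0.16 without P4V replicate 3 and 0.24 without P4V replicate 2, and the part of these markers in the values was not tested.

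**Figure D4:**
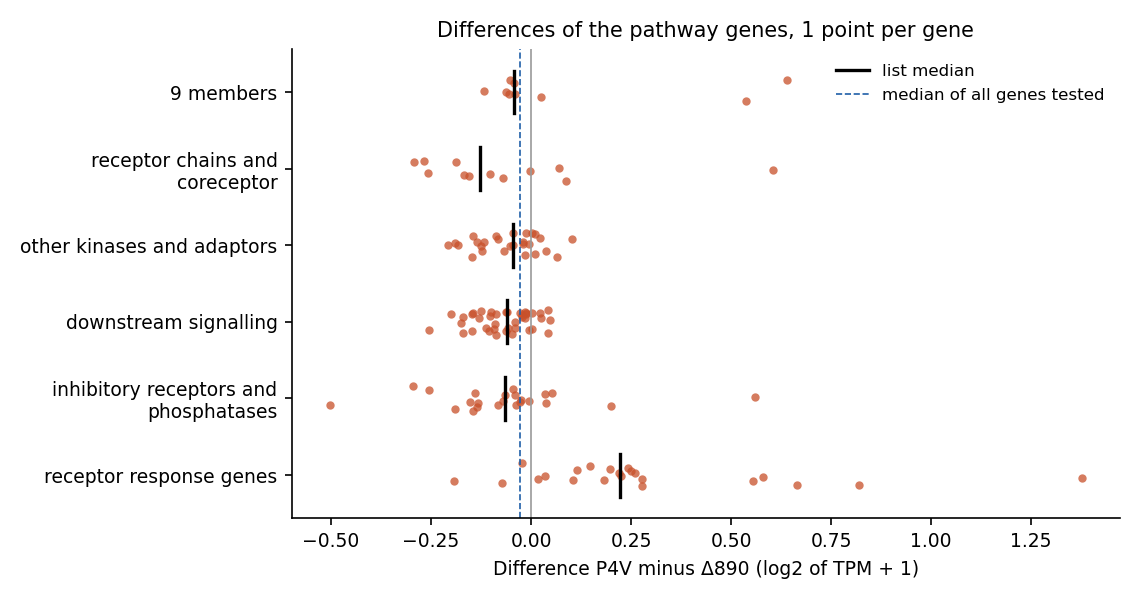
Difference P4V minus Δ890 on the scale of log2(TPM + 1) for the 9 genes and each tested gene of the 5 pathway lists, 1 point per gene with a vertical line at the list median (dashed line, median of all genes tested). Most lists lie just below 0, and the response genes have a median of 0.22 with Fosb (1.38) and Fos (0.82) farthest to the right.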

How the data were processed

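The authors sequenced poly(A)-selected RNA of sorted IgMb immature B cells, removed ribosomal reads, mapped with TopHat, kept unique reads without duplicates, counted them with featureCounts (version 1.5.0) on genes that included immunoglobulin segments, and deposited TPM values per library. Whether strand was used and the genome build of these libraries are not given in the sources used here. TPM carries no read number, so depth and counting error are unknown. Of the files, 48 of VDJ recombination were not used.

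Groups follow the labels (2 Δ890, 3 P4V). In 2 libraries, 4 and 1 entries held no value, which left 24728 genes. Values were tested as log2(TPM + 1), with a minimum mean of 1 TPM, by limma (version 3.58.1, R 4.3.3; eBayes with a mean trend) with Benjamini-Hochberg adjustment over all 11681 genes. Fold changes on this scale understate the change of low genes. The script was tested on simulated data. The study describes the libraries as independent experiments, and p-values measure the spread between them. Intervals cover 95%.

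The members, gene lists and tests were chosen with earlier results of these data known. Named were the 9 members, Vpreb2, Igkc, and in each list the 2 highest genes and the 2 largest differences in each direction, the 3 genes most like the member of largest range, and markers that moved with a result. A few items that this rule names are not reported here. Summed markers not named in the report were 4511 to 5195 TPM for B cells, 36604 to 42812 TPM for immature B cells, 527 to 788 TPM for recirculating B cells, 18.2 to 23.9 TPM for T and NK cells, 161 to 178 TPM for plasmacytoid dendritic cells and 400 to 455 TPM for erythroid cells and platelets (Hba-a2 and Hbb-b1 at 0 in all libraries). Alternatives were the pseudocount, the filter, the trend, the scaling and leaving out each library. Promoters were read from a RefSeq table and shared 50-base windows from GENCODE transcripts, which held no Syk transcript.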

Additional observations from a re-analysis of the deposited data

How the results depend on the processing

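No member and no gene of the 5 pathway lists was called under any of the 12 alternatives. Over all genes, 1 was called, against 0 with a pseudocount of 0.1, 0 with a pseudocount of 5, 0 without the trend, 0 after rescaling without immunoglobulin segments, 2 without the filter (both lower in P4V, so that the gene called higher, Ighv1-82, was lost), and 0 to 4 when a library was left out (0 without Δ890 replicate 1 or P4V replicate 1, 2 without P4V replicate 2, 4 without P4V replicate 3). Of 423 log2 differences of 36 named genes under the alternatives, 408 kept their direction and 15, in 12 genes, changed sign, each when a library was left out and none by more than 0.11 from 0. With 1 library left out, these 12 genes ranged from -0.029 to 0.83 (Vpreb1), -0.11 to 0.15 (Vpreb3), -0.087 to 0.039 (Blnk), -0.0051 to 0.12 (Igkc), -0.66 to 0.073 (Ighd), -0.052 to 0.095 (Pik3ap1), -0.013 to 0.14 (Vav3), -0.043 to 0.034 (Rac2), -0.022 to 0.11 (Orai1), -0.0019 to 0.092 (Mapk3), -0.065 to 0.012 (Ptpn6) and -0.043 to 0.33 (Ubash3b). Genes that kept their sign could move by over 1.5 times too, with ranges of -0.13 to -0.030 (Cd79a), -0.094 to -0.013 (Cd79b), -0.094 to -0.017 (Lyn), -0.076 to -0.0092 (Syk), -0.17 to -0.059 (Btk), 0.0029 to 0.99 (Igll1), 0.26 to 0.85 (Vpreb2), 0.0069 to 0.18 (Ighm), -0.38 to -0.15 (Iglc2), -0.27 to -0.14 (Pik3ca), -0.093 to -0.019 (Csk), -0.086 to -0.030 (Rhoa), -0.13 to -0.032 (Dusp2), -0.71 to -0.23 (Sla2), -0.45 to -0.14 (Spry1) and 0.33 to 0.83 (Ubash3a). The library that turned the sign was P4V replicate 2 for Vpreb1 and Igkc, P4V replicate 3 for Blnk, Ptpn6, Ubash3b and Vpreb3, and Δ890 replicate 1 for Ighd, Pik3ap1 and Vpreb3. It was Δ890 replicate 2 for Vav3, Rac2, Orai1 and Mapk3, and P4V replicate 1 for Rac2 and Orai1. The cause was not tested. With 1 Δ890 library left, it is assumed to vary like the P4V libraries. No paired analysis was possible because the replicate numbers follow only the order of listing. Scaling by the median ratio moved the median of all genes from -0.03 to 0.0031. As TPM keeps no depth, what is detectable at 1 to 20 TPM cannot be stated from counts.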
